A study of Mus musculus with 6 samples.

Results

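Malat1, Neat1, Gas5, Snhg1 and Snhg8 are long noncoding RNAs, transcripts that work or are turned over as RNA and are not known to be translated into a protein. They were chosen by symbol, with earlier results of the comparison between wild type and LAIR-1-deficient cells in view, so their differences between the genotypes are given below as a description. All 5 symbols had a row among the 14515 genes of the count table, and all 5 were among the 9565 genes with enough counts to be tested (a minimum count of 10 in edgeR's filter). LAIR-1 is an inhibitory receptor of immune cells that binds collagen, and the study asked what its loss does to resting naive CD8 T cells. RNA was sequenced from the spleens of 3 wild type mice (Lair1+/+) and 3 LAIR-1-deficient mice (Lair1-/-), 1 library per mouse. From each spleen 100000 cells were sorted as positive for CD45, CD3 and CD8 and negative for CD44, with no treatment of either group. The labels used here give no age, sex or strain, and no design of the deleted allele.

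Malat1 and Neat1 are unusually abundant RNAs that stay in the nucleus. Malat1 gathers at nuclear speckles, stores of splicing factors, and Neat1 is the scaffold around which paraspeckles, a second kind of nuclear body, are built. Gas5, Snhg1 and Snhg8 are host genes: their introns carry small nucleolar RNAs (snoRNAs), which guide chemical modification of ribosomal RNA, while the spliced exons that remain are usually degraded on ribosomes by nonsense-mediated decay. Gas5 was named for its accumulation in growth-arrested cells and has been described as a decoy for the glucocorticoid receptor. In T cells, Gas5 has been tied to growth arrest, and Malat1 is among the most abundant nuclear RNAs.

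Malat1 (ENSMUSG00000092341.3) lies on the minus strand of chromosome 19 at 5795690 to 5802672 in GRCm38, and Neat1 (ENSMUSG00000092274.3) lies on the same strand at 5824708 to 5845478, 22035 bases away. Both are annotated as lincRNA genes by GENCODE. Malat1 and the long form of Neat1 carry no poly(A) tail made in the usual way. Their 3′ end is cut by RNase P, and uridine-rich stretches fold back on a genome-encoded A-rich stretch to protect it. The stretches of the 2 transcripts are shown because they are the sequence the 2 RNAs have in common. The windows of 90 bases close with the longest ending of Neat1 that also occurs in Malat1. Each line runs 5′ to 3′ along the transcript, and the capitals mark the runs of at least 10 bases present in both windows:
Malat1, chr19:5795982-5796071, minus strand: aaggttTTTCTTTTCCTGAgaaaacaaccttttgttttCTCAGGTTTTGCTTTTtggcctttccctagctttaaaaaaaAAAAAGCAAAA
Neat1, chr19:5824708-5824797, minus strand: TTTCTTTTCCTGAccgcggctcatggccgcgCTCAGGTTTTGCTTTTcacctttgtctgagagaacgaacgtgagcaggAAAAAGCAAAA
The shared runs were 13, 16 and 11 bases long. TTTCTTTTCCTGA occurred in 7 of 33554 noncoding transcripts of the annotation (0.0209%), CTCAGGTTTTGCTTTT in 2 (0.00596%) and AAAAAGCAAAA in 105 (0.313%), on the transcript strand. Transcripts of 2 genes, Malat1 and Neat1, held all 3. The A-rich stretch of Neat1 closed its annotated transcript at base 20771, whereas that of Malat1 ended at base 6691 of 6983, with 292 annotated bases after it.

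The 3 host genes lie elsewhere. Gas5 (ENSMUSG00000053332.13) is on the plus strand of chromosome 1 at 161034422 to 161038539, with 25 annotated transcripts of up to 12 exons. Snhg1 (ENSMUSG00000108414.1) is on the plus strand of chromosome 19 at 8723475 to 8726443, with 18 transcripts of up to 10 exons, and Snhg8 (ENSMUSG00000104960.1) is on the minus strand of chromosome 3 at 123507552 to 123508404, with 3 exons. Several snoRNA host genes are known to start their RNA within a run of pyrimidines beginning at a C, a feature they share with ribosomal protein genes and that is read by the mTOR pathway. The bases around the RefSeq starts are shown because the 3 hosts shared a TATA box with a C start, which the choice of genes did not use. TATA reads the same on both strands. The lines give 45 bases before the start and 30 from it on, on the gene's strand, with a TATA and the C-led pyrimidine run at the start in capitals:
Gas5, chr1:161035121-161035195, plus strand: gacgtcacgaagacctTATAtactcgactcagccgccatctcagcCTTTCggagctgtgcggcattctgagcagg
Snhg8, chr3:123508307-123508381, minus strand: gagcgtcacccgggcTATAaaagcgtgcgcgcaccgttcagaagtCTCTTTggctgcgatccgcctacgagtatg
Snhg1, chr19:8723442-8723516, plus strand: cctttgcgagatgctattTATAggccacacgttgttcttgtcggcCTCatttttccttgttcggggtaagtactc
Malat1, chr19:5802643-5802717, minus strand: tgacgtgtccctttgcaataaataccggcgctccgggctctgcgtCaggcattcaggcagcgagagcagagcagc
TATA stood 29 bases before the start in Gas5, 30 in Snhg8 and 27 in Snhg1, and Malat1 had none in the window searched, 40 to 25 bases before the start. The pyrimidine run was 5 bases in Gas5, 6 in Snhg8, 3 in Snhg1 and 1 in Malat1. Of 32841 promoters in the table, 5.23% held TATA in that window, 2.50% had a C-led run of at least 5, and 0.131% had both, as Gas5 and Snhg8 did. Of 19 other noncoding snoRNA hosts with a promoter in the table, 1 (Snhg7) had such a run of at least 5. The minimum of 5 equals the run of Gas5, and Snhg1 falls below it. How many of those other hosts, or of all promoters, paired TATA with a C start is not given here. A second listed start of Gas5, at 161034601, had neither. The pyrimidine run was searched on the gene's strand only, and the matches describe letters in the window, not factor binding.

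The libraries held 5519748 to 9187017 counts, and each LAIR-1-deficient library was smaller (at most 7296424) than each wild type library (at least 7974206). Lair1 checked the labels, with counts of 58, 32 and 43 in wild type mice 1, 2 and 3 and of 2, 1 and 1 in LAIR-1-deficient mice 1, 2 and 3 (log2 fold change -4.58, edgeR adjusted p = 0.00255). The CD8 and naive markers were present, 10 of 10, with Cd8a at 868 to 988 CPM (counts scaled to a common library size). Markers of other cells summed to 490 to 653 CPM in the wild type group and to 466 to 635 CPM in the deficient group, over 43 genes, of which 32 averaged under 2 CPM. The sum was mostly Nkg7 (335 to 398 CPM) and Eomes (38.0 to 58.6 CPM), which CD8 T cells also express, and the haemoglobin row Beta-s. Beta-s, an erythroid gene, ranged from 26.8 to 166 CPM and was highest in wild type mouse 2 and LAIR-1-deficient mouse 3. The B cell genes Cd79b and Cd79a were at 12.3 to 17.2 and 5.33 to 11.7 CPM, and Cd4 was at or under 2.46 CPM. Of the macrophage markers, Cd68 was at 2.84 to 3.91 CPM and C1qb at 1.01 to 5.46 CPM, with overlapping groups, and Lyz2 was at or under 0.137 CPM. Hmox1, of the same list, was at 4.93 to 6.23 CPM in the wild type group and 1.58 to 2.66 CPM in the deficient group. The library of mouse 1 stood apart in both genotypes: the summed immediate early genes, which respond within minutes to stimulation and to tissue handling, reached 16964 and 20010 CPM there against 8208 to 9109 CPM in the 4 others. Mitochondrially encoded genes took 17.2% and 15.6% of counts in those libraries and 19.2% to 21.1% in the 4 others, each with a 95% Wilson interval no wider than 0.0657 percentage points, which covers counting error only. The labels give the 2 mice a common number and no shared day or litter. In sorted bulk RNA, fewer cells of a type and less RNA per cell cannot be told apart.

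**Figure D1:**
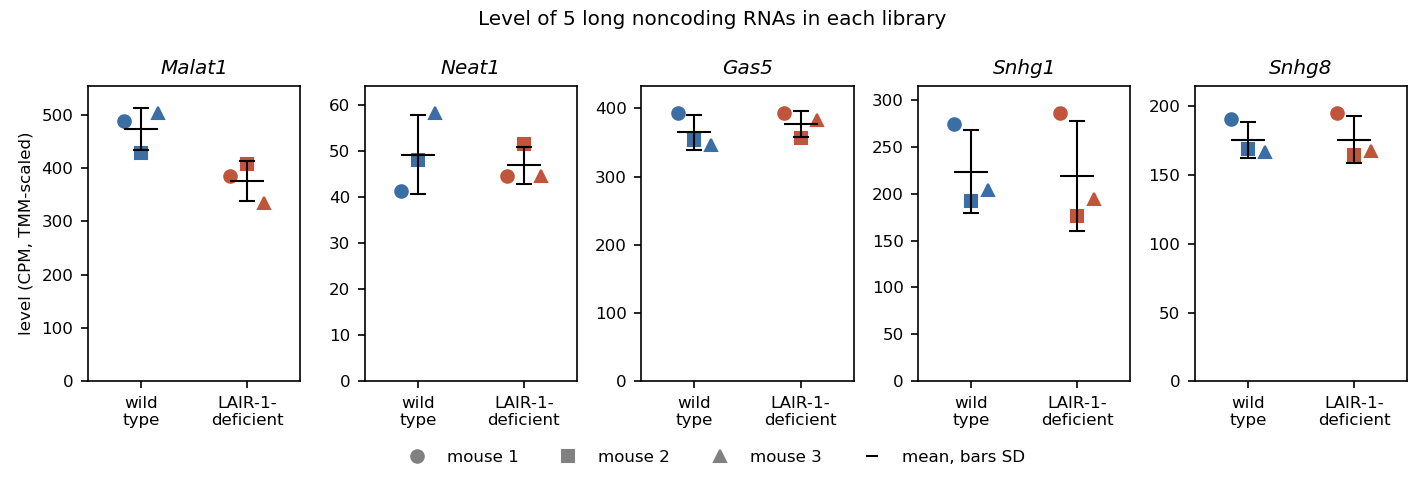
Level of each of the 5 RNAs in each library, in CPM after TMM scaling, with 1 panel per gene; points are single mice, bars the mean and lines the SD of 3 mice per genotype. Malat1 is the RNA whose LAIR-1-deficient libraries (335 to 407) all sit below the wild type ones (429 to 504), while the mouse 1 library is the highest of its genotype for Gas5, Snhg1 and Snhg8.

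Malat1, the speckle RNA, had the largest difference between the genotypes among the 5 RNAs. Its level was 489, 429 and 504 CPM in wild type mice 1, 2 and 3 and 385, 407 and 335 CPM in LAIR-1-deficient mice 1, 2 and 3. Every LAIR-1-deficient library lay below every wild type library. The means were 474 ± 39.8 CPM and 375 ± 37.0 CPM (SD, n = 3 each), a ratio of 0.793. On the log2 scale the difference was -0.34 with a standard error of 0.10 and a 95% interval of -0.54 to -0.13. Groups that did not overlap were found for 8.37% of all genes tested, 4.08% with the LAIR-1-deficient libraries lower, so that Malat1 was 1 of 390 such genes. With 2291 to 4495 counts per library, counting error alone was at most 2.09% of the Malat1 level. The LAIR-1-deficient libraries were also the 3 smallest, and the part of depth in this difference was not tested. Hmox1 also separated the genotypes in the same direction (4.93 to 6.23 against 1.58 to 2.66 CPM), and its part was not tested.

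Neat1, its neighbour in the genome and the scaffold of paraspeckles, did not follow that separation. Wild type mice 1, 2 and 3 had 41.3, 48.2 and 58.4 CPM, and LAIR-1-deficient mice 1, 2 and 3 had 44.6, 51.5 and 44.6 CPM. The highest and the lowest library were both wild type, so the LAIR-1-deficient range lay inside the wild type range. Means were 49.3 ± 8.58 CPM and 46.9 ± 3.97 CPM (SD, n = 3 each), and the log2 difference was -0.07 with an interval of -0.36 to 0.21. Its sign turned to 0.063 without wild type mouse 3. Neat1 was the least counted of the 5 RNAs, at 290 to 521 counts, which left a counting error of up to 5.87%.

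Because the 2 RNAs were read in the same libraries, their ratio does not depend on scaling. Neat1 counts per Malat1 count were 0.0845, 0.112 and 0.116 in wild type mice 1, 2 and 3 and 0.116, 0.127 and 0.133 in LAIR-1-deficient mice 1, 2 and 3. The highest wild type library, mouse 3 at 0.1159, lay just below the lowest LAIR-1-deficient library, mouse 1 at 0.1160. The groups thus did not overlap, by a gap smaller than the counting error of Neat1 (up to 5.87%). The ratio is no separate result, because its denominator, Malat1, was lower in the LAIR-1-deficient group and was chosen with that contrast in view. Nothing is read from the separation of the ratio. The LAIR-1-deficient mean was higher, at 0.125 ± 0.00874 against 0.104 ± 0.0172 (SD, n = 3 each), a 1.202-fold difference of means. Wild type mouse 1 was the lowest, and without it the ratio of means was 1.097.

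Gas5, the host of the largest set of snoRNAs among the 3 host genes, differed little between the genotypes. It stood at 393, 354 and 346 CPM in wild type mice 1, 2 and 3 and at 393, 356 and 383 CPM in LAIR-1-deficient mice 1, 2 and 3. The groups overlapped, and the mouse 1 library was the highest in each. Means were 365 ± 25.2 CPM and 378 ± 19.3 CPM (SD, n = 3 each), a log2 difference of 0.05 (standard error 0.09) with an interval of -0.14 to 0.24.

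Snhg1 had the widest spread of the 5 RNAs. Its level was 274, 192 and 204 CPM in wild type mice 1, 2 and 3 and 286, 176 and 194 CPM in LAIR-1-deficient mice 1, 2 and 3. Mouse 1 was far above the other libraries in both genotypes, and the remaining 4 lay between 176 and 204 CPM. Means of 223 ± 44.3 CPM and 219 ± 58.9 CPM (SD, n = 3 each) gave a log2 difference of -0.03 with an interval of -0.54 to 0.48. The sign was positive without wild type mouse 1 (0.15), LAIR-1-deficient mouse 2 (0.11) or LAIR-1-deficient mouse 3 (0.052).

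Snhg8, the shortest of the 5 genes, repeated the Snhg1 pattern at a smaller size. Wild type mice 1, 2 and 3 had 190.4, 169 and 167 CPM, and LAIR-1-deficient mice 1, 2 and 3 had 195, 165 and 167 CPM. Mouse 1 was again highest in each genotype, and the other 4 libraries lay within 165 to 169 CPM. Means were 175 ± 13.1 CPM and 176 ± 16.8 CPM (SD, n = 3 each), and the log2 difference of 0.003 had an interval of -0.21 to 0.22.

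**Figure D2:**
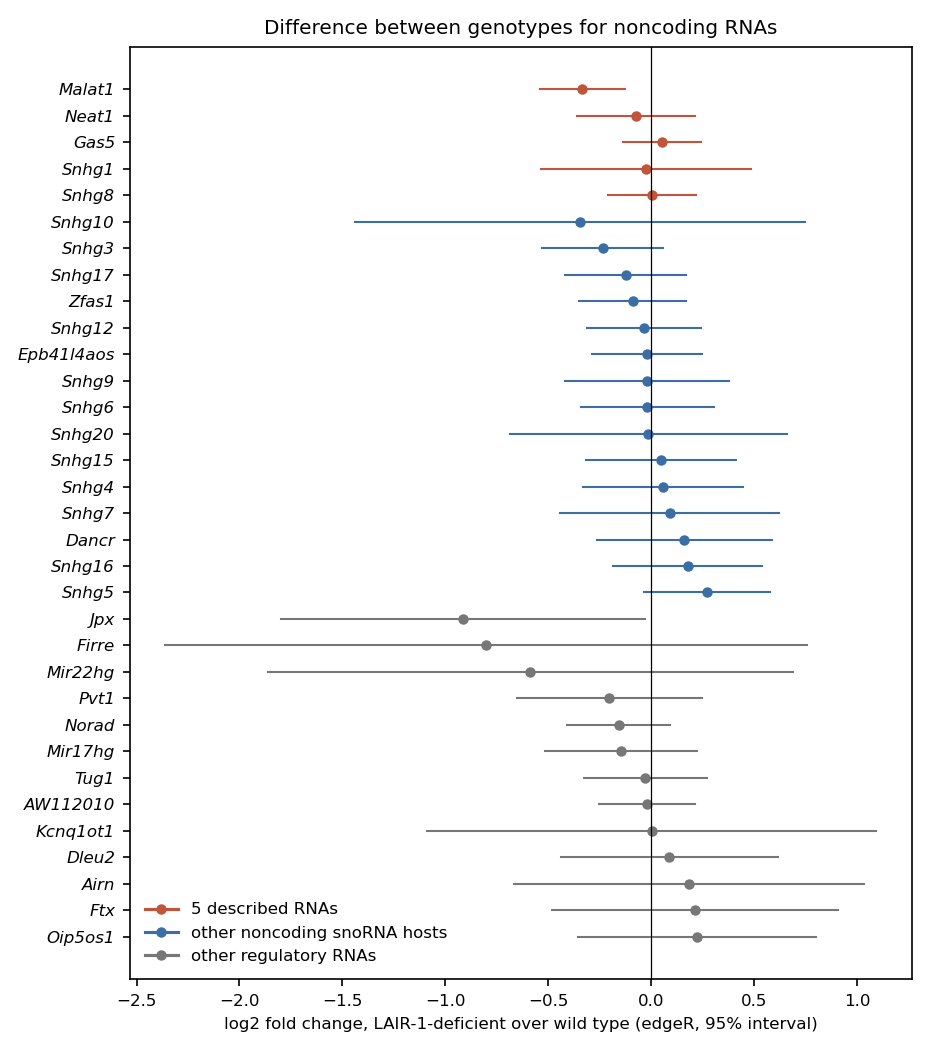
Difference between LAIR-1-deficient and wild type mice on the log2 scale, as the edgeR estimate (point) with its 95% interval (line), where 0 is no difference. Colours separate the 5 described RNAs, the other noncoding snoRNA hosts and the other regulatory RNAs. Malat1 is at -0.34 and its interval ends at -0.13. Of the 5 described RNAs, the other 4 have intervals that span 0, and that of Snhg1 is the widest. Among the other RNAs drawn, Jpx also has an interval below 0 (-1.80 to -0.033).

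By edgeR's quasi-likelihood test, 0 of the 5 RNAs reached an adjusted p under 0.05 over the 9565 genes, where 1 gene, Lair1, did (0.0105%). DESeq2 and limma-voom also called 0 of the 5, and at an unadjusted p under 0.05 there was 1, Malat1, beside 3.25% of all genes in either direction and 1.44% in the same direction. Since the RNAs were chosen with this contrast in view, nothing is read from these counts. The intervals are the more direct description: all 5 lay within a 1.5-fold difference in either direction, as did those of 63.2% of all genes. The intervals of Gas5 and Snhg8 also lay within 1.25-fold, which held for 19.5% of all genes.

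Levels of different genes were compared per length, as CPM per kilobase of annotated exons. The length is that of all exons of all annotated transcripts together. It equals the whole gene span for Malat1, Neat1, Snhg1 and Snhg8, and is 3760 of 4118 bases for Gas5. Spliced or shorter transcripts would give other values, and the order under other lengths was not tested. How reads covered the transcripts is not given in the sources used here, so these values would shift if reads came from the 3′ ends only. Snhg8 (0.853 kb) was the highest at 206 ± 15.8 CPM per kb (SD over 6 libraries), followed by Gas5 (3.76 kb) at 98.7 ± 5.65, Snhg1 (2.969 kb) at 74.4 ± 15.7, Malat1 (6.983 kb) at 60.8 ± 9.14 and Neat1 (20.771 kb) at 2.32 ± 0.295 CPM per kb. The ranges of Gas5 (92.1 to 105) and Snhg1 (59.3 to 96.3) overlapped, although Gas5 was the higher of the 2 within each library. Those of Snhg1 and Malat1 (47.9 to 72.1) overlapped too. Snhg8 at the top and Neat1 at the bottom were separated from their neighbours in every library.

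Across libraries, the 3 host genes were highest in mouse 1 of both genotypes. Both mouse 1 libraries lay above the 4 others for Snhg1 (1.46-fold, 279.8 against 191 CPM on average), Snhg8 (1.16-fold) and Gas5 (1.09-fold). Neat1 lay below, at 0.848 of the level in the 4 others, with a margin at the nearest library that was under 0.1 CPM and that was lost with RLE size factors. Malat1 did neither. Such a separation of both mouse 1 libraries was seen for 11.9% of all genes upward and 12.1% downward. When libraries were scaled to their totals without mitochondrial counts, Snhg1 and Snhg8 still lay above but Gas5 did not, leaving 2 of the 5 RNAs beside 6.71% of all genes. Immediate early genes were above in 22 of 24 cases in the same libraries, and their part in the host gene levels was not tested.

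The other noncoding snoRNA hosts gave 6 of 15 tested genes above in both mouse 1 libraries: Snhg5 (1.30-fold), Snhg10 (1.85-fold), Snhg12 (1.22-fold), Snhg17 (1.26-fold), Zfas1 (1.22-fold) and Epb41l4aos (1.15-fold). Snhg10 rested on few reads, 17 and 20 counts in the mouse 1 libraries and 4 to 19 in the others. Its margin was thin, at 2.14 CPM in wild type mouse 1 against 2.08 CPM in wild type mouse 2. Snhg20 went the other way, at 16.3 CPM in the mouse 1 libraries against 26.0 to 31.1 CPM in the others. Protein-coding genes that carry snoRNAs in their introns, most of them ribosomal protein and translation factor genes, were above in 16 of 33 cases. The glucocorticoid receptor and genes it induces were above in 7 of 15 cases, so a high share was not particular to snoRNA hosts. Subunits and assembly factors of snoRNA-protein complexes were above in 4 of 16 cases. Paraspeckle proteins were above in 4 of 29 cases, nuclear speckle proteins in 1 of 20, nonsense-mediated decay factors in 4 of 21 and other regulatory long noncoding RNAs in 2 of 13. With mitochondrial counts left out of the totals, these counts were 4 for the noncoding hosts and 9 for the protein-coding hosts. They were 6 for the glucocorticoid list, 4 for paraspeckle proteins, 0 for speckle proteins and 0 for decay factors. The snoRNA-protein factors and the regulatory RNAs had 1 each.

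**Figure D3:**
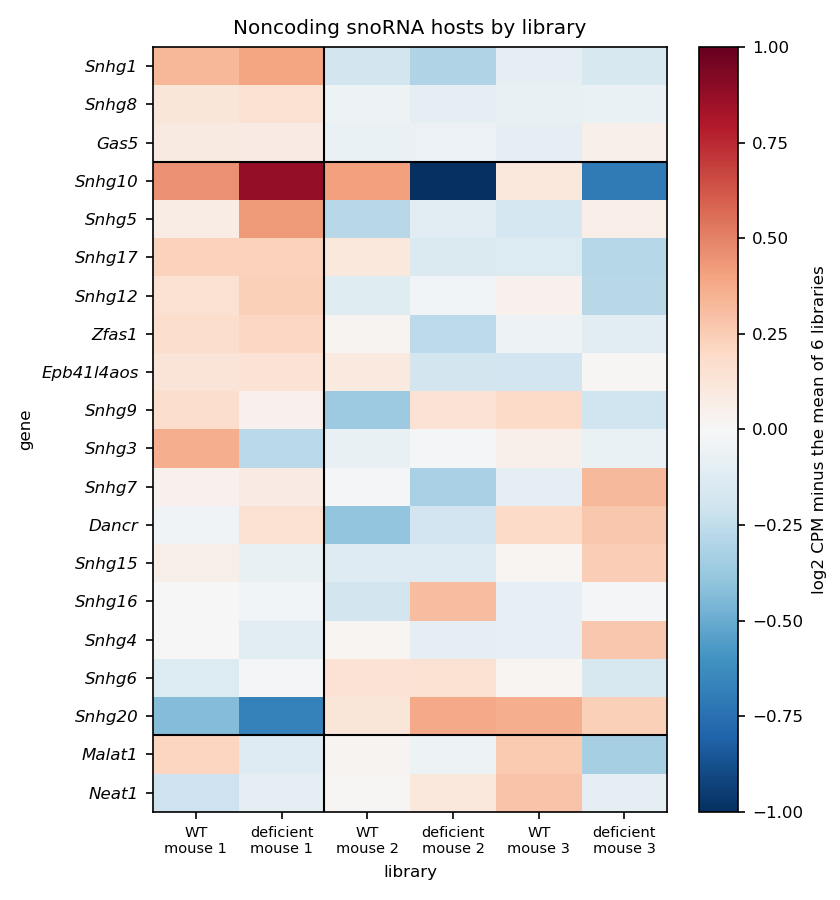
Deviation of each noncoding snoRNA host gene (rows) from its own mean over the 6 libraries (columns), in log2 CPM, with red above and blue below the mean; the colour scale is capped. Snhg1 and Snhg8 are red in the mouse 1 library of both genotypes, as are Snhg5 and Snhg12, while Snhg20 is blue there.

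The spread between mice of a genotype was set beside that of genes at a similar level (within 2-fold). Snhg1 had a within-genotype SD of 0.33 on the log2 scale against a median of 0.12 for 842 such genes, and 96.6% of them varied less. Without the mouse 1 libraries it fell to 0.08, lower than the median of 0.09. Snhg8 went from 0.12 to 0.014 without mouse 1, where 1.98% of its comparison genes varied less. With all mice, Snhg8 was at the median of its comparison genes (0.12, with 51.7% varying less). Malat1 was at 0.13 against 0.11 with all mice and at 0.18 against 0.09 without mouse 1, where 90.3% of its comparison genes varied less. Neat1 was at 0.19 against 0.15 and Gas5 at 0.09 against 0.11, and without mouse 1 they were at 0.17 against 0.12 and 0.06 against 0.09.

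**Figure D4:**
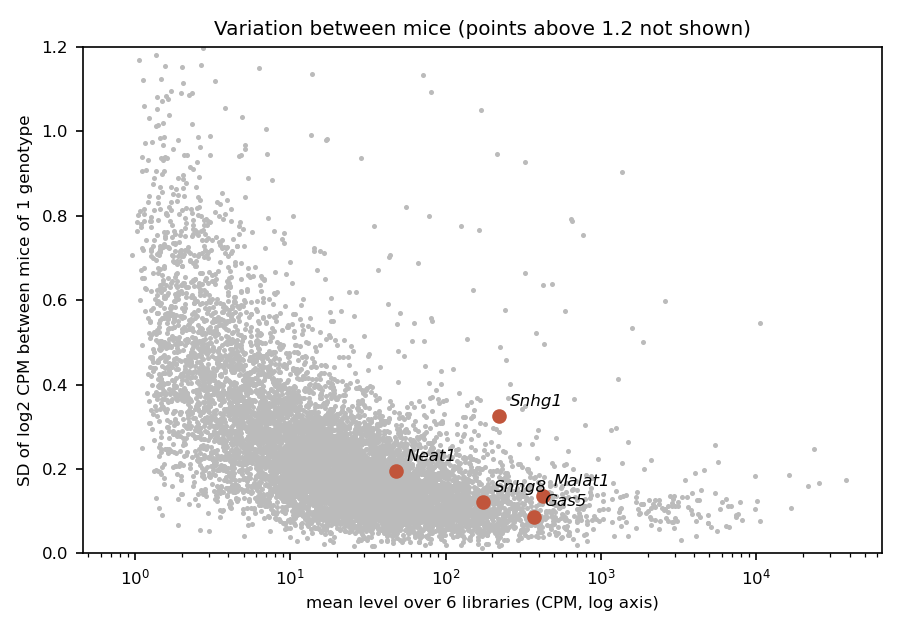
Within-genotype SD of log2 CPM (vertical axis) against mean level in CPM (horizontal axis, log scale) for all genes tested (grey) and the 5 RNAs (named points). Snhg1, at 0.33, is above most genes of its level, whereas Gas5, at 0.09, is below the median of 0.11 for its level.

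Ratios within a library showed how far the hosts moved together. Snhg8 counts per Gas5 count were 0.484, 0.477 and 0.481 in wild type mice 1, 2 and 3 and 0.496, 0.463 and 0.436 in LAIR-1-deficient mice 1, 2 and 3. That ratio ranged little, with means that differed by a factor of 0.967. Snhg1 counts per Gas5 count were 0.696, 0.541 and 0.589 against 0.727, 0.495 and 0.507 in the same order, so Snhg1 was highest relative to Gas5 in the mouse 1 library of each genotype.

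The small RNAs processed from these hosts were mostly not in the table. GENCODE places 9 snoRNA genes inside Gas5, 8 inside Snhg1 and 1 inside Snhg8, and of these only Snord47 (Gas5) and Snord22 (Snhg1) had a row. Snord22 had 84, 71 and 104 counts in wild type mice and 57, 47 and 66 in LAIR-1-deficient mice, or 9.997 ± 2.01 against 8.52 ± 0.43 CPM (SD, n = 3 each), a log2 difference of -0.23. Relative to its host, Snord22 was lowest in mouse 1 of each genotype, at 0.0387 and 0.0287 counts per Snhg1 count there against 0.0405 to 0.0571 in the 4 others. The nearest values, 0.0387 and 0.0405, rest on only 84 and 71 Snord22 counts. Snord22 itself averaged 9.39 CPM in the mouse 1 libraries against 9.19 CPM in the others, while Snhg1 was 1.46-fold higher there. Snord47 had 4 to 15 counts and was not tested. Reads of a host and of a snoRNA in its intron can be assigned to either row, and the counting is not given in the sources used here.

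In none of the lists that follow did edgeR, DESeq2 or limma-voom call a gene at an adjusted p under 0.05. Of the other noncoding hosts, 6 of the 15 tested were higher and 9 lower in LAIR-1-deficient mice, 0 passed an adjusted p under 0.05 by edgeR and 0 an unadjusted one, and the median log2 difference was -0.02 beside 0.0006 over all genes. Snhg5 averaged 41.5 ± 5.31 CPM in the wild type mice against 49.9 ± 9.68 CPM. Snhg3 was at 41.3 ± 6.58 and 35.0 ± 3.21 CPM, and Zfas1, with the most counts of this list, at 79.4 ± 6.45 and 74.5 ± 12.6 CPM (SD, n = 3 each). The groups overlapped for each of the 3. Among the 33 protein-coding hosts 20 were higher and 13 lower, with 0 called by edgeR, 1 at an unadjusted p under 0.05 and a median of 0.02.

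Of the other regulatory long noncoding RNAs, 13 of 29 on the list were tested, with 5 higher, 8 lower and 0 past the adjusted threshold by edgeR (1 at an unadjusted p under 0.05), and a median of -0.03. Jpx, an activator of the X-inactivation RNA, averaged 6.36 ± 2.75 CPM with and 3.31 ± 2.12 CPM without Lair1. Norad, which binds Pumilio proteins, was at 49.3 ± 2.68 and 44.2 ± 3.27 CPM (SD, n = 3 each). Kcnq1ot1, an imprinted nuclear RNA, was at 346, 283 and 658 CPM against 388, 535 and 365 CPM, and its groups overlapped, unlike those of Malat1.

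The proteins that build paraspeckles around Neat1 were all measured, 29 of 29, with 11 higher, 18 lower, 0 called by edgeR (1 at an unadjusted p under 0.05) and a median of -0.04. Pspc1, a core paraspeckle protein, averaged 14.5 ± 3.33 CPM in the wild type mice against 10.7 ± 2.61 CPM, and Rbm14, needed for paraspeckle assembly, was at 25.5 ± 2.21 and 32.1 ± 3.95 CPM (SD, n = 3 each). Nuclear speckle proteins, where Malat1 gathers, were split 10 and 10 with 0 called and 0 at an unadjusted p under 0.05, and their median was 0.001. Srsf1, a splicing factor bound by Malat1, was at 103 ± 2.53 and 88.6 ± 19.5 CPM.

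Factors that act on the host transcripts were examined next. Of 21 nonsense-mediated decay factors 14 were higher and 7 lower, with 0 called, 0 at an unadjusted p under 0.05 and a median of 0.03. Upf1, the helicase of that pathway, averaged 53.0 ± 12.6 CPM in the wild type mice against 59.7 ± 1.48 CPM. Of 16 subunits and assembly factors of snoRNA-protein complexes 10 were higher and 6 lower, with 0 called, 0 at an unadjusted p under 0.05 and a median of 0.02. Ruvbl2, an assembly ATPase, was at 55.2 ± 3.88 and 65.1 ± 6.79 CPM (SD, n = 3 each). For Gas5, the glucocorticoid receptor and genes it induces had 9 higher and 6 lower of 15 tested, with 0 called, 0 at an unadjusted p under 0.05 and a median of 0.04.

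Of the 7 protein-coding neighbours reported here 6 were tested, 3 were higher and 3 lower, 0 were called by edgeR with 0 at an unadjusted p under 0.05, and their log2 differences ran from -0.17 to 0.22. Frmd8, beside Neat1, averaged 151 ± 9.38 CPM in the wild type mice against 162 ± 14.5 CPM (SD, n = 3 each), with overlapping groups. Slc3a2, an amino acid transporter subunit whose gene begins 106 bases from Snhg1 on the opposite strand, was at 270, 246 and 208 CPM in wild type mice 1, 2 and 3 and 280, 193 and 257 CPM in LAIR-1-deficient mice 1, 2 and 3, also highest in mouse 1. Zbtb37 overlaps Gas5 by 428 bases on the opposite strand, and whether counting used strand is not given in the sources used here. Zbtb37 averaged 1.37 CPM in the wild type mice against 1.26 CPM. Ndst3, beside Snhg8, had too few reads to be tested, with 4, 3 and 3 counts in wild type mice and 1, 0 and 0 in LAIR-1-deficient mice. Its groups did not overlap, but the counts were near 0 and each LAIR-1-deficient library was smaller than each wild type library. Nothing is read from that separation.

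The genes most like each RNA were found by Pearson's r of log2 CPM over the 6 libraries, among 6373 genes averaging at least 10 CPM. For Malat1 they were Mon2 (r = 0.986), Kdm6a (0.985), Zcchc17 (0.969), Tet3 (0.963) and Slc7a1 (0.961), and for Neat1 Zfp91 (0.991), Appl1 (0.989), Zfp113 (0.984), Ddx31 (0.982) and Ctdspl2 (0.981). Gas5 had Fam102a (0.991), Bcl7b (0.983), Mocs3 (0.980), Alyref (0.978) and Cxxc1 (0.972). Snhg1 was matched by Cd69 (0.993), Adipor1 (0.991), Dusp1 (0.990), Odc1 (0.990) and Jun (0.989), and Snhg8 by Dusp1 (0.996), Odc1 (0.995), Zfp36 (0.994), Gpr183 (0.993) and Vps37b (0.993). Cd69, Jun, Dusp1 and Zfp36 are activation or immediate early genes. All 5 genes matched to Snhg1 and all 5 matched to Snhg8 stood above in both mouse 1 libraries. Of the Gas5 matches, Bcl7b did not. With those libraries, the 2 farthest from the median, left out, r over the 4 others ran from 0.842 (Odc1) to 0.984 (Jun) for Snhg1, with Cd69 at 0.976, and from 0.754 (Dusp1) to 0.9501 (Vps37b) for Snhg8. Above r = 0.95 there were 7 genes for Malat1, 19 for Neat1, 15 for Gas5, 76 for Snhg1 and 83 for Snhg8. A negative r of more than 0.95 in size was found for 5, 21, 16, 35 and 39 genes in the same order. The negative matches outnumbered the positive ones for Neat1 and Gas5, and the reverse held for Malat1, Snhg1 and Snhg8. How many genes would pass by chance was not tested. These counts are a description over 6 libraries that share their depth and scaling with every gene.

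**Figure D5:**
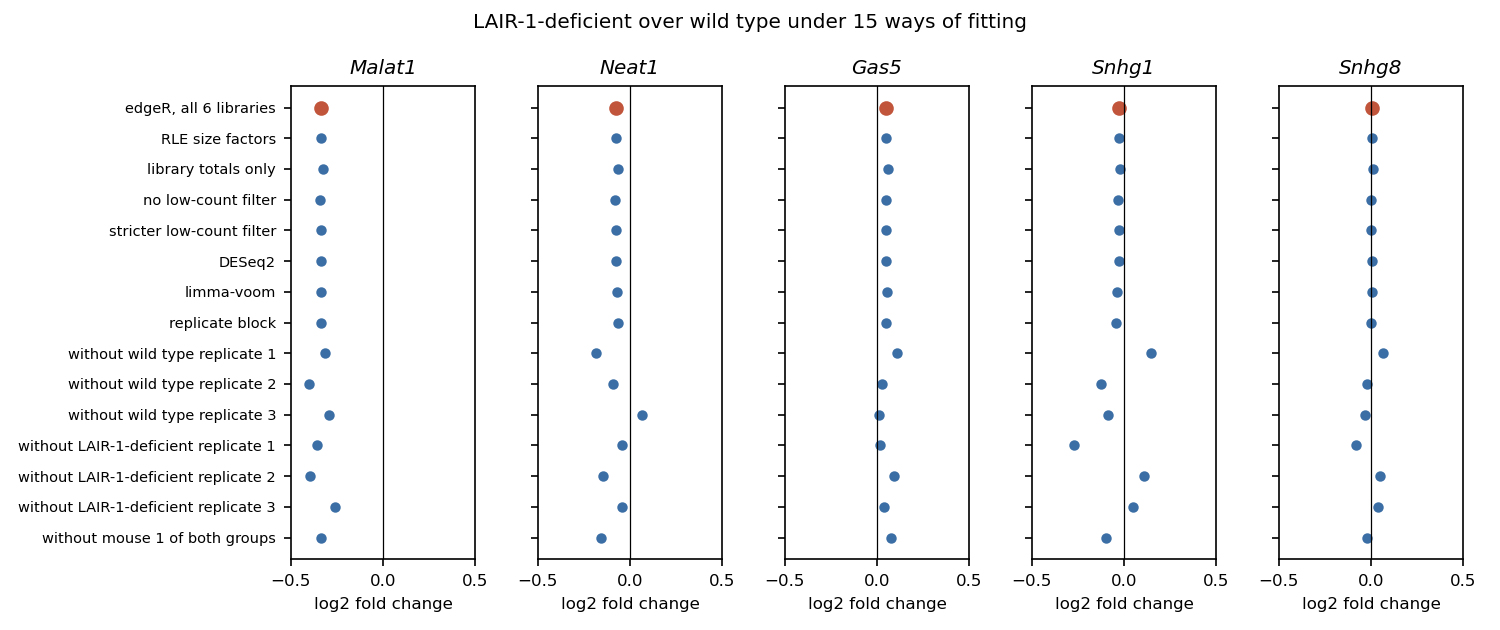
Log2 difference between LAIR-1-deficient and wild type mice for each RNA (columns of points) under each way of scaling, filtering and testing and with each library left out. Malat1 stays between -0.40 and -0.26, whereas Neat1, Snhg1 and Snhg8 fall on both sides of 0.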

How the data were processed

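The values used were read counts per gene and library, a raw count table as deposited by the authors, per the file headers. Alignment was with BWA to mm10 (no version), per the submitters' processing notes; per the labels' protocols, TRIzol total RNA was made into libraries with Illumina primers of the small RNA kind. Not given in the sources used here: the counter, its annotation, its strand setting and any molecule identifiers. The libraries are 6 separate mice. The 4 spike rows were left out.

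Counts were filtered by edgeR (4.0.16, minimum count 10), scaled by TMM and tested with its quasi-likelihood test, LAIR-1-deficient against wild type, with Benjamini-Hochberg adjustment over 9565 genes (threshold 0.05). Correlations used a prior count of 2. DESeq2 (1.42.0), limma-voom (3.58.1), other scalings and filters, a replicate block and each library left out were alternatives. The code was tested on simulated counts, in 5 runs with 200 changed genes each. By edgeR at an adjusted p under 0.05, 37.6% of 1.5-fold, 74.9% of 2-fold and 93.3% of 4-fold changes were recovered. The 95% intervals covered the true value for 94.6%, 92.2% and 90.9% of these genes in the same order. There were 58 false calls over all runs.

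The members and lists were chosen with earlier results of these data known. Named were all members, their neighbours, per list the 3 genes with the smallest unadjusted p and the 2 most abundant, the 5 most alike genes per member, and the 2 most abundant markers for each other cell type; the text prints part of these, and some neighbours are not reported here. Other genes with values in the mouse 1 comparison were chosen after their values were seen. Promoter sequences are from RefSeq (GRCm38.p6; 4 of 5 members matched), transcripts and positions from GENCODE vM21 (GRCm38).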

Additional observations from a re-analysis of the deposited data

How the results depend on the processing

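All 5 RNAs stayed uncalled in each of the 14 alternatives. With a library left out in turn, the log2 difference ran from -0.40 to -0.26 for Malat1, -0.19 to 0.063 for Neat1, 0.01 to 0.11 for Gas5, -0.27 to 0.15 for Snhg1 and -0.083 to 0.066 for Snhg8. Snhg8 was at -0.00049 without a filter and -0.019 without mouse 1 of both groups, where Slc3a2 was at -0.016 and Myc at -0.045. Genes called numbered 1, against 3 without a filter, 0 with a stricter filter, 0 without mouse 1 of both groups and 0 to 2 with a library left out. With a library left out, signs also turned for Zbtb37 (-0.59 to 0.077), Prss12 (-0.14 to 0.57), Slc3a2 (-0.10 to 0.15), Fkbp4 (-0.0045 to 0.18), Ier3 (-0.92 to 0.033) and Jund (-0.19 to 0.53). The median of the other regulatory long noncoding RNAs was -0.15 without a filter, -0.13 without wild type mouse 1 and -0.16 without wild type mouse 2. The median of speckle proteins was 0.051 without wild type mouse 3, and that of snoRNA-protein factors 0.080 without LAIR-1-deficient mouse 3. With a library left out in turn, the medians of noncoding hosts (-0.028 to 0.036), protein-coding hosts (-0.050 to 0.059), speckle proteins (-0.030 to 0.051), decay factors (-0.00088 to 0.048) and the glucocorticoid list (-0.076 to 0.15) took both signs. Scalings for the mouse 1 counts were chosen after seeing the data; without mitochondrial counts in the totals, genes above in mouse 1 fell from 1141 to 642. The labels state no pairing by mouse number, and these values cannot settle it. Same-numbered deviations correlated at 0.29, 0.0094 and 0.065 for mice 1, 2 and 3, and differently numbered ones at -0.22 to 0.18. With the replicate block 1 gene was called and Malat1 was at -0.34. The cause of these shifts was not tested. Counting error was largest for Neat1 (5.87%), and 3 mice per group left intervals as wide as that of Snhg1.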

Other observations

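Kcnq1ot1, an imprinted nuclear RNA, had 5871 counts in wild type mouse 3 against 2588 to 3013 counts in the 5 other libraries. Over the 6 libraries Malat1 had an SD of 0.22 on the log2 scale against a median of 0.11, and 91.3% of 400 genes at its level varied less. That SD includes the difference between the genotypes, for which Malat1 was in view. Within genotype the SD was 0.13 against 0.11, and 67.8% of those genes varied less. Of the 66 rows for snoRNAs, 10 had enough counts to be tested, of which 3 were higher and 7 lower in LAIR-1-deficient mice with a median of -0.17 and 0 called by edgeR (0 at an unadjusted p under 0.05). Their summed level was 76.8, 63.4 and 62.4 CPM in wild type and 64.1, 58.1 and 68.7 CPM in LAIR-1-deficient mice, so the groups overlapped.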
